A study of Homo sapiens with 8 samples.

Results

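The miRNAs described here belong to a family of hairpins that arose from copies of the transposon LINE-2, and comprise hsa-miR-28-5p, hsa-miR-28-3p, hsa-miR-151a-5p, hsa-miR-151a-3p, hsa-miR-151b, hsa-miR-708-5p and hsa-miR-708-3p. They were selected by name and made up 7 of the 2588 miRNA names quantified. Small RNA-seq was performed in 4 human cancer cell lines with 2 replicate libraries each, giving 8 libraries. ES-2 is derived from ovarian cancer, MV-3 from melanoma, Huh-7 from hepatocellular carcinoma and A-549 from lung adenocarcinoma. All libraries were made from untreated parental cells 48 h after seeding, so that the comparison concerns the abundance of miRNAs in the lines themselves. The study calls the replicates biological, but the labels do not say whether they came from separate cultures, and p-values measure the spread between these libraries only. Each line represents 1 tumor.

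A miRNA hairpin is cut into a duplex whose strands, the 5p and the 3p arm, can each be loaded onto an Argonaute protein, where bases 2 to 8 of the loaded strand, the seed, guide it to target mRNAs. LINE-2 elements no longer move in the human genome, but pairs of copies inserted head to head can be transcribed into a hairpin, and several conserved miRNAs have this origin. Because these hairpins lie in introns, they are expected to be made from the transcripts of their host genes where both share a strand. In cancer, miR-28 is best known from B-cell lymphomas, miR-151a from the migration of liver cancer cells, and miR-708 from the response to stress of the endoplasmic reticulum. The 5p arms of miR-28 and miR-708 are grouped in one seed family.

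In GENCODE 44 (GRCh38), the miR-28 hairpin spans chr3:188688781-188688866 on the plus strand, in an intron of LPP, which encodes a focal adhesion protein and is transcribed in the same direction. The miR-708 hairpin spans chr11:79402022-79402109 on the minus strand, in an intron of TENM4, a gene for a teneurin, a transmembrane protein, again in the direction of its host. The miR-151b hairpin, at chr14:100109419-100109514, is on the minus strand in an intron of EVL, which is transcribed from the opposite strand. Reads of miR-151b are hard to separate from those of miR-151a-5p, since the sequence of miR-151b lies within that of the longer miRNA and how reads matching more than 1 place were counted is not given in the sources used here.

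The RefSeq table (GRCh38.p14) held mature sequences for 3 of the 7 members. They are shown because their relatedness is what makes these miRNAs a family, with the seed in capitals:
hsa-miR-28-3p: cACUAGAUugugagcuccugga
hsa-miR-708-3p: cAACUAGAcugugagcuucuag
hsa-miR-708-5p: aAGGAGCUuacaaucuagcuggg
The 3p arms of miR-28 and miR-708, both 22 bases long, were identical at 18 of 23 aligned columns, 2 of which were gaps. They shared the stretch UGUGAGCU, which was present in no other of the 2370 mature names in the table, that is in 2 names or 0.0844%. Their seeds nevertheless differed, since the shared ACUAGA starts 1 base later in miR-708-3p. That stretch was found in 9 names (0.380%). A match was also seen between opposite arms. When miR-708-5p was aligned to the reverse complement of miR-28-3p, 16 of 17 columns were identical without a gap, including the run ACAAUCUAG of 9 bases that starts at base 10 of miR-708-5p. The arms of a hairpin pair with each other, and against the reverse complement of miR-708-3p the same arm matched at 16 of 20 columns. Given the likeness of the 3p arms, the match between opposite arms is not a separate sign of kinship.

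The levels are given as deposited, in CPM (counts scaled to a common total of miRNA reads) divided by a scaling factor of each library, the trimmed mean of M values (TMM), and are called normalised CPM. Whole reads could be recovered from them, and the same levels without the TMM factor are called library CPM. The libraries held from 1173902 to 2670030 miRNA reads, with TMM factors from 0.593 to 1.70, and 3 reads, taken as the detection floor, corresponded to 0.845 to 2.45 normalised CPM. miR-21-5p alone took 64.6% ± 0.610 (SD, n = 2) of the reads in A-549, compared with 33.1% ± 0.306 in Huh-7, 32.6% ± 0.739 in MV-3 and 27.6% ± 0.836 in ES-2, and leaving out the TMM factor shifted the median difference of all miRNAs between lines by -1.33 (A-549 minus Huh-7) to 0.87 (Huh-7 minus ES-2) on the log2 scale. Directions that turn with this choice are therefore named below. The 3 hepatocyte markers (among them miR-122-5p) summed to 84702 to 89605 normalised CPM in Huh-7 and to at most 40.7 elsewhere. The 5 epithelial markers of the miR-200 family summed to 1605 to 2339 in Huh-7 and A-549, but to 29.6 to 60.4 in ES-2 and MV-3. Most of the sum in Huh-7 and A-549 came from miR-200b-3p (means of 1853 and 1354). In contrast, miR-141-3p was highest in ES-2, with 5.25 against 1.08 in Huh-7, 0.409 in A-549 and 0 in MV-3. In MV-3, 0 of the 2 melanocyte markers exceeded the floor, miR-211-5p being without a read and miR-204-5p having 2 reads in each library, so that these markers do not show its melanocytic origin.

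miR-151a was the most abundant hairpin of the family in all 4 lines, miR-28 came next, miR-708 was restricted to ES-2 above the detection floor, and miR-151b was rare. In a limma F test over the 528 miRNAs that passed the filter on low values, 6 of the 7 members passed an adjusted p of 0.01 for differences among the lines, as did 68.2% of all miRNAs tested. miR-151b was the exception (adjusted p = 0.737, limma). Since the miR-708 arms passed the filter only through ES-2, where they are high, their calls follow from the filter, and 4 of the other 5 members were called.

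**Figure D1:**
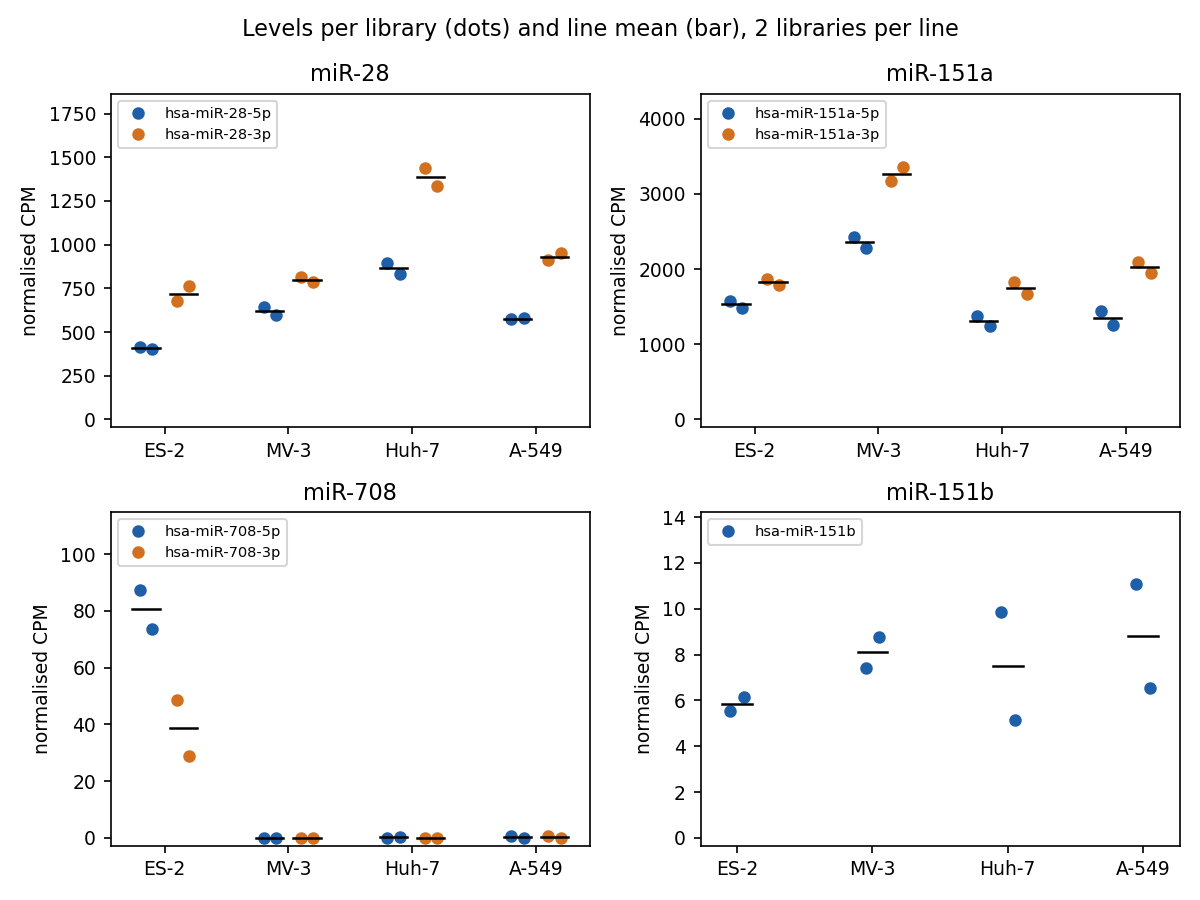
Levels of the 7 members in normalised CPM (y axis, linear and from 0, with a different range in each panel) in the 4 lines (x axis). Each dot is a library and each bar the mean of 2 libraries. The miR-28 arms are highest in Huh-7, the miR-151a arms in MV-3, and the miR-708 arms stand above 0.616 normalised CPM only in ES-2.

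miR-28 was highest in Huh-7 and lowest in ES-2, in both arms. The level of miR-28-5p was 415 and 405 normalised CPM in ES-2, 643 and 597 in MV-3, 898 and 833 in Huh-7, and 573 and 579 in A-549. No library of one line reached into the range of another, but MV-3 and A-549 lay close together. miR-28-5p was thus 2.11-fold higher in Huh-7 than in ES-2 (log2 fold change 1.08 ± 0.08 SE, adjusted p = 3.87e-05, limma). Against MV-3 the difference was 0.48 on the log2 scale (adjusted p = 0.00192, limma), and 0.0129 without MV-3 replicate 2, which is past the threshold of 0.01. A-549 was lower than Huh-7 by a log2 fold change of -0.59 (adjusted p = 0.000693, limma). ES-2 was also exceeded by MV-3, with a log2 fold change of 0.59 (adjusted p = 0.00123, limma). The 0.49 by which A-549 exceeded ES-2 (adjusted p = 0.00202, limma) lost its call when any 1 of the 4 libraries of that pair was left out (0.0104 to 0.0119), and turned to -0.02 in library CPM. Between the neighbours MV-3 and A-549 the log2 difference was -0.10, with a 95% interval from -0.29 to 0.08 (adjusted p = 0.311, limma), but in library CPM it was -1.06 and passed the threshold (adjusted p = 3.54e-05, limma).

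The other arm, miR-28-3p, had levels of 677 and 761 normalised CPM in ES-2, 814 and 787 in MV-3, 1441 and 1336 in Huh-7, and 911 and 949 in A-549. Here, too, both Huh-7 libraries stood above all others. Huh-7 exceeded ES-2 by a log2 fold change of 0.95 ± 0.08 SE (adjusted p = 9.6e-05, limma), MV-3 by 0.79 (adjusted p = 0.000248, limma), and A-549 was lower than Huh-7 by -0.58 (adjusted p = 0.00103, limma). The differences between neighbours at the lower end did not pass the threshold in normalised CPM. MV-3 and ES-2 differed by 0.16 (95% interval -0.05 to 0.36, adjusted p = 0.211, limma), which became 0.60 and was called in library CPM (adjusted p = 0.000845, limma). The difference between A-549 and MV-3 was 0.22 (95% interval 0.01 to 0.42, adjusted p = 0.0706, limma), a direction that turned to -0.74 in library CPM. The log2 fold change of 0.37 between A-549 and ES-2 barely passed the threshold (adjusted p = 0.00942, limma). It missed it with edgeR on the recovered reads (0.0165), with any 1 library other than ES-2 replicate 2 left out (0.0151 to 0.0464), and turned to -0.14 in library CPM. In contrast, the excess of Huh-7 over each of the other 3 lines was larger in library CPM, where miR-28-5p had means of 1443 in Huh-7, 721 in MV-3, 351 in ES-2 and 346 in A-549.

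miR-151a was highest in MV-3. Its hairpin lies in an intron of PTK2, the gene of focal adhesion kinase, on chromosome 8 and on the strand of that gene. The level of miR-151a-5p was 1570 and 1487 normalised CPM in ES-2, 2432 and 2285 in MV-3, 1374 and 1236 in Huh-7, and 1437 and 1258 in A-549. The libraries of MV-3 lay above all others, those of Huh-7 and A-549 overlapped, and ES-2 was slightly above both. MV-3 exceeded ES-2 by a log2 fold change of 0.63 ± 0.09 SE (adjusted p = 0.0023, limma), although this call was lost when any 1 of the 4 libraries was left out (0.0127 to 0.0211). Huh-7 was lower than MV-3 by -0.85 (adjusted p = 0.000281, limma). This difference narrowed to -0.33 in library CPM and then missed the threshold (adjusted p = 0.018, limma). A-549 was lower than MV-3 by -0.81 (adjusted p = 0.000477, limma), and by -1.76 in library CPM.

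Levels of miR-151a-3p were 1864 and 1791 normalised CPM in ES-2, 3170 and 3362 in MV-3, 1821 and 1670 in Huh-7, and 2097 and 1954 in A-549. MV-3 again stood apart, by a log2 fold change of 0.84 ± 0.07 SE over ES-2 (adjusted p = 0.000221, limma). Huh-7 was lower than MV-3 by -0.90 (adjusted p = 7.04e-05, limma) and A-549 by -0.69 (adjusted p = 0.000314, limma). Both calls also stood in library CPM, at -0.38 and -1.64. The order of the other 3 lines depended on the scaling. For Huh-7 minus ES-2, the log2 difference was -0.07 (95% interval -0.24 to 0.11, adjusted p = 0.501, limma) in normalised CPM but 0.89 in library CPM. For A-549 minus Huh-7, it was 0.21 (adjusted p = 0.0398, limma) but -1.26 in library CPM. The corresponding differences of miR-151a-5p, -0.23 and 0.04, turned to 0.73 and -1.43.

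**Figure D2:**
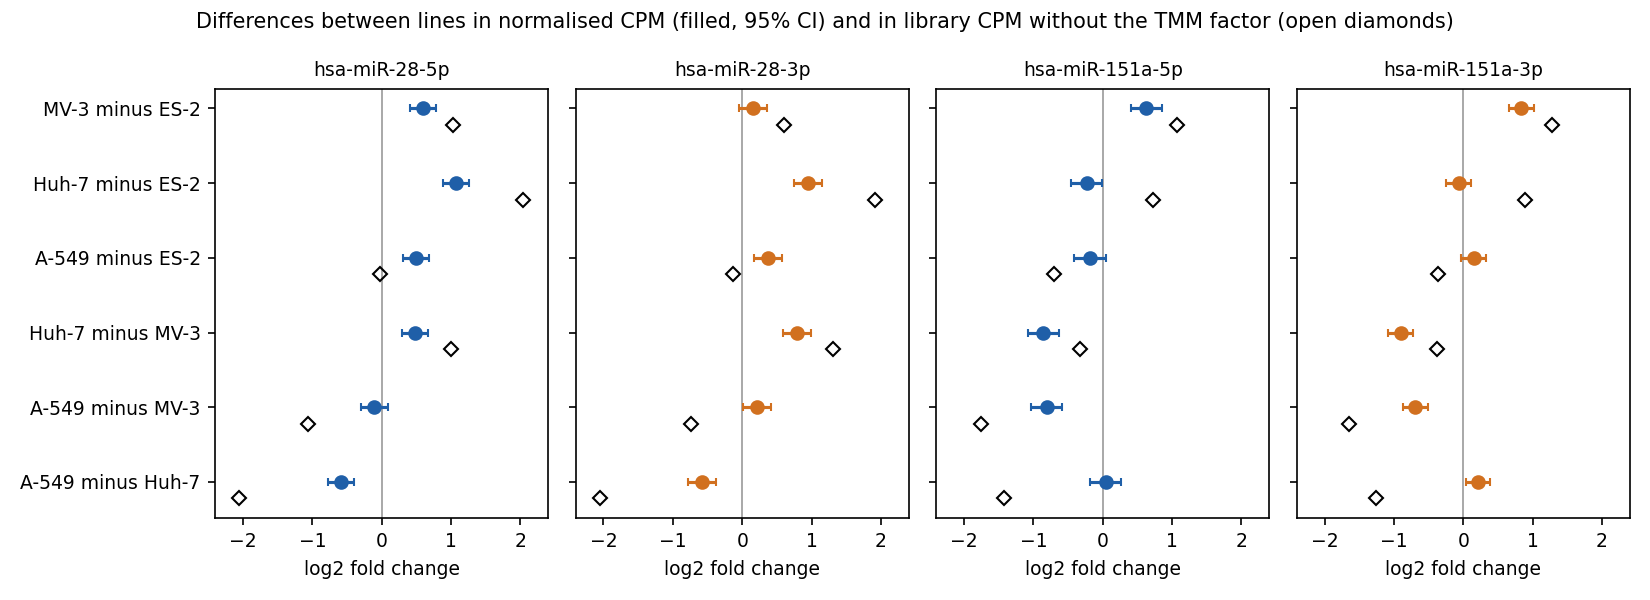
Log2 fold changes (x axis) of the arms of miR-28 and miR-151a for the 6 pairs of lines (y axis). Filled dots with bars give the limma estimate in normalised CPM with its 95% interval, and open diamonds the estimate in library CPM. The excess of miR-28 in Huh-7 and of miR-151a in MV-3 keeps its sign on both scales, whereas most differences among the other lines, such as miR-151a-5p in Huh-7 minus ES-2 (-0.23 and 0.73), do not.

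The miR-708 arms left aside, as their calls in the pairs with ES-2 follow from the filter, limma called 3 of the other 5 members for MV-3 against ES-2 (background 25.8% of miRNAs), 2 for Huh-7 against ES-2 (49.2%) and 2 for A-549 against ES-2 (41.3%). Of the same 5, it called 4 for Huh-7 against MV-3 (47%), 2 for A-549 against MV-3 (39.6%) and 2 for A-549 against Huh-7 (52.3%).

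The range of miR-28 and miR-151a over the lines was narrow. The highest line mean exceeded the lowest 2.11-fold for miR-28-5p, 1.93-fold for miR-28-3p, 1.81-fold for miR-151a-5p and 1.87-fold for miR-151a-3p in normalised CPM. The median ratio was 6.90 over the 181 miRNAs tested whose mean reached 100 normalised CPM, of which 24 to 35 had a smaller ratio than these arms. In library CPM the ratios were 3.12 to 4.17, against a median of 9.14. Ranked by level within a line, miR-151a-3p held places 35 to 47, miR-151a-5p 43 to 55, miR-28-3p 49 to 74 and miR-28-5p 61 to 93.

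The balance of the 2 abundant hairpins does not depend on the scaling between libraries, because both are read from the same library. For each miR-151a read there were 0.318 and 0.356 miR-28 reads in ES-2, 0.260 and 0.245 in MV-3, 0.732 and 0.746 in Huh-7, and 0.420 and 0.476 in A-549, both arms summed. Huh-7 was highest, MV-3 lowest, and the libraries of the 4 lines did not overlap. The differences exceeded the spread of the replicates in a two-sided exact permutation test over all ways of pairing the 8 libraries (p = 0.00952, the smallest this design can give, adjusted p = 0.0286 over 3 hairpin ratios). Summed over the 7 members, the family took 0.886% ± 0.0283 (SD, n = 2) of miRNA reads in Huh-7, 0.821% ± 0.0105 in MV-3, 0.395% ± 0.0128 in ES-2 and 0.294% ± 0.0173 in A-549 (exact permutation p = 0.00952). With miR-21-5p reads left out of the total, the share in A-549 was 0.831% and that in ES-2 0.546%, against 1.32% in Huh-7 and 1.22% for MV-3, so that A-549 then lay above ES-2. In normalised CPM the order turned further, since the members summed to 7053 ± 18.9 in MV-3, 5312 ± 327 in Huh-7, 4889 ± 201 for A-549 and 4609 ± 81.6 for ES-2. Of the family's reads, miR-28 made up 42.4% in Huh-7 but 20.1% in MV-3, 24.7% in ES-2 and 30.6% in A-549.

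**Figure D3:**
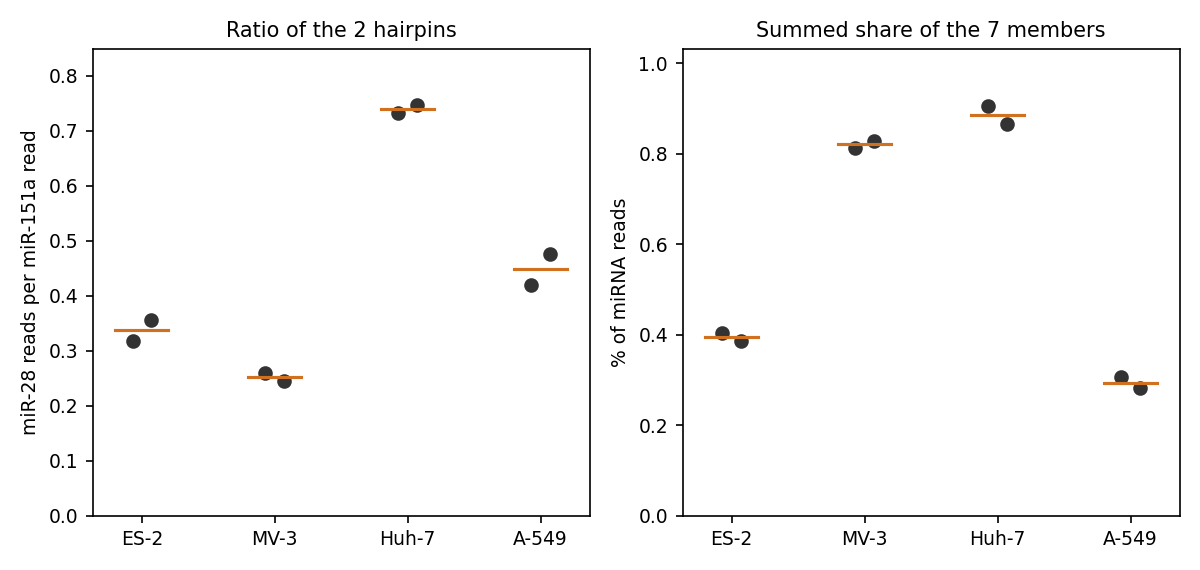
Reads of miR-28 per read of miR-151a (left, both arms summed) and the share of all miRNA reads taken by the 7 members in percent (right), by line. Dots are libraries and bars means of 2. The ratio is highest in Huh-7 (0.732 and 0.746) and lowest in MV-3 (0.260 and 0.245), while the share is lowest in A-549 (0.294%).

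miR-708 was restricted to ES-2 within the depth of these libraries. In ES-2, miR-708-5p had 87.5 and 73.4 normalised CPM (126 and 143 reads) and miR-708-3p 48.6 and 28.8 (70 and 56 reads). In MV-3 both arms had 0 reads in both libraries, which allows up to 2.22 normalised CPM in the shallower library. In Huh-7 there was 1 read of miR-708-5p in replicate 2 and 0 of miR-708-3p, and in A-549 there was 1 read of each arm in replicate 1 and 0 in replicate 2. A test of these differences adds nothing, since both arms passed the filter on low values only through ES-2. The size of the fold is limited by the reads. miR-708-5p was at least 36.2-fold higher in ES-2 than in MV-3, taking the floor of 3 reads per library. Its ratio of ES-2 to Huh-7, which rests on 1 read in Huh-7, was 515 with an exact 95% interval from 91.6 to 20396, and that of ES-2 to A-549, also on 1 read, was 226 (40.2 to 8963). miR-708-3p was at least 17.4-fold higher in ES-2 than in MV-3 and at least 37.7-fold higher than in Huh-7, and its ratio to A-549 was 106 (18.7 to 4216, on 1 read). These intervals and floors cover counting error only. In RNA from bulk cells, a high level in some cells and a lower level in all of them cannot be told apart.

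Even in ES-2, miR-708 was a minor part of the family. It ranked 163 (5p) and 201 (3p) in that line and made up 2.53% of the reads of the 7 members. Per miR-28 read there were 0.106 ± 0.0261 (SD, n = 2) miR-708 reads, and 0.0354 ± 0.00597 per miR-151a read. The exact permutation test of these ratios over the lines gave p = 0.0381 for miR-28 and p = 0.0571 for miR-151a (adjusted p = 0.0571 for both). Most other libraries had 0 or 1 reads, so that their ratios were set largely by depth and by a small constant added to the reads. The outcome therefore says nothing on miR-708, here or with libraries left out. TENM4 also holds the hairpin of miR-5579, whose arms had reads only in ES-2. There were 3 and 7 reads of miR-5579-5p and 0 and 4 of miR-5579-3p. These counts are near the floor. Markers of blood cells moved with the line as well. Of the 5 markers, miR-142-3p and miR-142-5p exceeded the floor in ES-2 (357 and 171 normalised CPM), where miR-223-3p and miR-144-3p had no read and miR-451a had 1. The 5 summed to 503 to 554 in ES-2 and to at most 3.27 elsewhere. Their part in the miR-708 level was not tested.

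The only other name in the RefSeq table that shares a seed with one of the 3 members shown is miR-3139, which carries that of miR-708-5p and is printed to show the shared seed:
hsa-miR-708-5p: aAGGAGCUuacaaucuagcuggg
hsa-miR-3139: uAGGAGCUcaacagaugccuguu
miR-3139 had 15 reads in Huh-7 replicate 1 and 0 in the other libraries, including the second of Huh-7. The letters AGGAGCU occurred anywhere in 8 of the 2370 mature names (0.338%). The table held no sequence for the other members, so shared seeds could not be sought for them. Among these is miR-28-5p, which is grouped with miR-708-5p in one seed family.

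More reads were counted for the 3p arm of miR-28 and miR-151a, and for the 5p arm of miR-708. The 5p arm took 38.0% and 34.7% of the miR-28 reads in ES-2, 44.2% and 43.1% in MV-3, 38.4% and 38.4% in Huh-7, and 38.6% and 37.9% in A-549. Its share of miR-151a was 45.7% and 45.4% in ES-2, 43.4% and 40.5% in MV-3, 43.0% and 42.5% in Huh-7, and 40.7% and 39.2% in A-549. All 16 of these shares, and their 95% Wilson intervals, were below 50%. The intervals cover counting error only. The 5p share of miR-151a would be too low if reads also matching miR-151b were left out, which is not known. For miR-708 in ES-2, the 5p arm took 64.3% (57.4 to 70.7) and 71.9% (65.2 to 77.6). In the ES-2 libraries, the arm with more reads thus differed between miR-708 and the other hairpins, while both arms of each were detected.

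The arm balance of miR-28 and miR-151a varied little between lines. miR-28 had its largest 5p share in MV-3 (43.6% ± 0.747, n = 2) and its smallest in ES-2 (36.4% ± 2.34), and miR-151a its largest in ES-2 (45.5% ± 0.249) and its smallest in A-549 (39.9% ± 1.06). A limma F test of the arm ratio over the 139 hairpins with both arms tested called 0 of the 3 hairpins of the family, with 7.91% called overall (adjusted p = 0.449 for miR-28 and 0.632 for miR-151a). At an unadjusted p below 0.05, which 38.1% of the hairpins passed, it gave 1 of 3, miR-708, whose ratio outside ES-2 is set by the pseudocount. When the prior variance was allowed to follow the level of the weaker arm, a choice made after seeing the data, the adjusted p fell to 0.0417 for miR-28 and 0.0458 for miR-151a, still above 0.01 (0 of 3 called, with 15.1% of all hairpins called). At an unadjusted p below 0.05 this fit gave 2 of 3, with 45.3% of all hairpins. The exact permutation test gave p = 0.0571 for each. The line means of the log2 arm ratio spanned 0.438 for miR-28 and 0.332 for miR-151a, whereas the median span over the 139 hairpins was 1.41. The 139 hairpins were not matched to miR-28 and miR-151a in level, so that counting error in weaker arms may be part of that median.

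**Figure D4:**
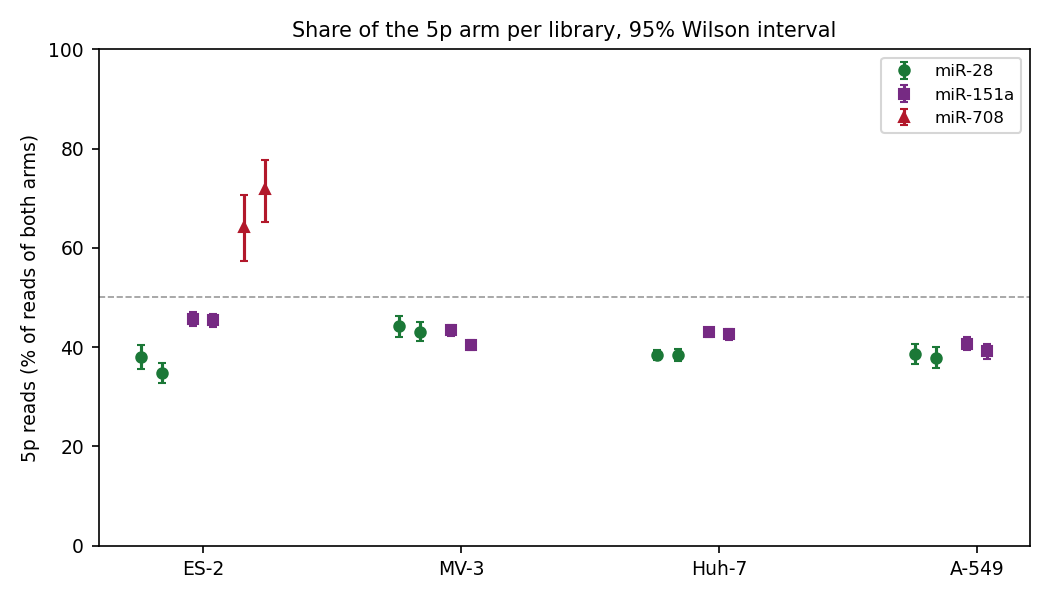
Share of the 5p arm in percent of the reads of both arms (y axis) for each library, by line (x axis). Bars are 95% Wilson intervals and cover counting error only. The dashed line marks 50%, and miR-708 is drawn for ES-2 only, where it lies above that line (64.3% and 71.9%), while miR-28 and miR-151a lie below it in all 8 libraries.

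miR-151b was near the limit of what the depth can resolve, with 8 to 35 reads per library. Its level was 5.55 and 6.16 normalised CPM in ES-2, 7.40 and 8.78 in MV-3, 9.85 and 5.12 in Huh-7, and 11.1 and 6.54 in A-549. The 2 Huh-7 libraries alone spanned all values of ES-2 and MV-3. Between ES-2 and A-549, the lowest and the highest mean, the log2 difference was 0.48 with a 95% interval from -0.62 to 1.57, which leaves room for more than a doubling. Its reads amounted to 0.304% to 0.771% of those of miR-151a-5p in the same library.

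Profiles over the 4 lines were compared by the root mean square difference of centred log2 line means, among the 375 miRNAs whose mean reached 10 normalised CPM. The arms of one hairpin resembled each other. They differed by 0.162 for miR-28 and 0.119 for miR-151a, and no other miRNA was closer to miR-28-5p or to either arm of miR-151a than its own partner. Between miR-28 and miR-151a the differences were 0.523 to 0.616. Outside the family, miR-148b-3p (0.169) and miR-320a (0.180) were most like miR-28-5p, and miR-320a (0.0303) and miR-185-5p (0.0874) most like miR-28-3p. Those most like miR-151a-5p were miR-1260b (0.146) and miR-16-2-3p (0.152), and those most like miR-151a-3p were miR-30d-5p (0.196) and miR-1260b (0.205). For miR-708-5p they were miR-3689b-5p (0.130) and miR-3689a-5p (0.395), near-identical copies whose reads may be shared, with 65.9 and 70.9 normalised CPM in ES-2 and at most 0.740 in the mean of any other line. With 4 line means per profile, these likenesses are a description.

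Other miRNAs listed as related to LINE-2 comprised 8 names, of which 6 were tested and 3 called among the lines (adjusted p below 0.01, limma), against 68.2% of all miRNAs tested. Of the 6, 3 were called for Huh-7 against ES-2, all higher in Huh-7 (background in either direction 49.2%), and 3 for A-549 against Huh-7, all lower in A-549 (52.3%). For the other pairs, 2 were higher in Huh-7 than in MV-3 (47%), 1 was higher in MV-3 than in ES-2 (25.8%), 1 higher in A-549 than in ES-2 (41.3%) and 1 lower in A-549 than in MV-3 (39.6%). In these counts, 1 of the 6, miR-95-3p, had passed the filter only through Huh-7. Its calls among the lines and in pairs with Huh-7 therefore follow from the filter. It is part of each count with Huh-7, and was the only name called for A-549 against ES-2 (6.05 and 0 normalised CPM). The other names called were miR-421 and miR-374b-5p. miR-421 had 412 ± 31.3 normalised CPM in Huh-7, 364 ± 4.29 in MV-3, 128 ± 1.32 in ES-2 and 111 ± 12.6 in A-549 (SD, n = 2, adjusted p = 2.27e-05, limma). miR-374b-5p had 511 ± 39.2 in Huh-7 and 288 to 309 in the other lines (adjusted p = 0.0015, limma). A second list, of 82 names related to mariner or MADE1 elements, had 44 names with a read, of which 13 were tested and 7 called, again against 68.2% of all miRNAs. Of the 13, 6 had passed the filter through 1 line only, 5 of them through Huh-7, so that their direction in that line is set by the filter and is not counted here. The 7 called include miR-548ar-3p, miR-548v and miR-548x-3p, which passed only through Huh-7 and whose calls follow from the filter. The count of 7 is therefore not read as a result about this list. The only tested name of this list with a mean above 100 normalised CPM was miR-340-5p. It was not called among the lines (adjusted p = 0.0132, limma). In pairs it was called only for Huh-7 against ES-2, with 394 ± 21.4 in ES-2 and 243 ± 37.1 in Huh-7 (adjusted p = 0.00861, limma).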

How the data were processed

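The authors used the NEXTflex kit on total RNA to make small RNA libraries. Per the study's methods, reads were trimmed with cutadapt (1.14), aligned to hg38 with Bowtie2 (2.3.2), counted on miRBase miRNAs with featureCounts (1.5.3) and normalised with edgeR (3.18.1). The deposited signal values are TMM-normalised CPM. Each was a whole read number times a constant of its library for 100% of values (tolerance 0.001), so reads were recovered from them. Entries with the same name were summed, giving 2588 names from 2813 entries. The main test was limma (3.58.1, R 4.3.3) on log2(normalised CPM + 1), so that fold changes of low miRNAs are understated, over 528 miRNAs past edgeR's filterByExpr, with 1 term per line and Benjamini-Hochberg adjustment (threshold 0.01). edgeR (4.0.16) and DESeq2 (1.42.0) on the recovered reads, other scalings and filters, and fits without a library were alternatives. edgeR called 371 of the 528 among the lines, limma 360. Arm ratios were tested likewise, and ratios of hairpins and shares by exact permutation. Named miRNAs were the members, the 2 most alike in profile, those sharing a seed, and list members called at a mean of at least 100 normalised CPM. The members, lists and tests were chosen with earlier results of these data known. The tests were checked on simulated data.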

Additional observations from a re-analysis of the deposited data

How the results depend on the processing

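The counts here include the miR-708 arms. The count of 6 members called among the lines did not move by more than 1.5 times under any alternative run. A minimum absolute log2 fold change of 1 lowered the members called to 2 for MV-3 against ES-2 and 2 for A-549 against ES-2. In both of these pairs the 2 were the miR-708 arms, whose calls follow from the filter, and none of the other 5 members remained. For each pair among MV-3, Huh-7 and A-549 the count fell to 0. The share of all miRNAs that passed this minimum was not counted. Fitting only the 4 libraries of the pair gave 3 for MV-3 against ES-2, the miR-708 arms among them. There, miR-28-5p and miR-151a-5p lost their calls (adjusted p = 0.0123 and 0.0107, limma). No filter gave 2 for A-549 against ES-2, as both miR-28 arms lost their calls (adjusted p = 0.0106 and 0.0341, limma). Scaling by library size only raised the counts of A-549 against MV-3 (to 4) and against Huh-7 (to 4). The share of all miRNAs called was not counted for these alternatives or for the fits without 1 library. With 1 library left out, the count for A-549 against ES-2 ranged from 2 (without ES-2 replicate 1 or either A-549 library) to 3, the adjusted permutation p of the miR-708 to miR-28 ratio from 0.0286 (without Huh-7 replicate 2 or A-549 replicate 2) to 0.0952, and that of miR-708 to miR-151a from 0.0476 (without Huh-7 replicate 2) to 0.0952. The permutation p of the family share was 0.019 without MV-3 replicate 1 and 0.00952 without any other library.

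Library size only reversed 8 log2 fold changes, to 0.73 (miR-151a-5p) and 0.89 (miR-151a-3p) for Huh-7 minus ES-2, to -0.022 (miR-28-5p), -0.14 (miR-28-3p) and -0.36 (miR-151a-3p) for A-549 minus ES-2, to -0.74 (miR-28-3p) for A-549 minus MV-3, and to -1.43 (miR-151a-5p) and -1.26 (miR-151a-3p) for A-549 minus Huh-7. The change of miR-28-5p for A-549 minus MV-3 became 0.028 with RLE size factors and 0.025 with DESeq2, and that of miR-151a-5p for A-549 minus Huh-7 ranged from -0.051 (without A-549 replicate 1; -0.031 without Huh-7 replicate 2) to 0.14 with 1 library left out. With RLE factors, and also with DESeq2, miR-151a-5p for Huh-7 minus ES-2 (-0.36 in both) and miR-151a-3p for A-549 minus Huh-7 (0.45 in both) became called. DESeq2 also called miR-28-3p for A-549 minus MV-3 (0.35, adjusted p = 0.00537, DESeq2). The cause was not tested.

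Equal replicate numbers did not pair the libraries, as their deviations correlated by -0.050 to 0.232 between lines. With a replicate block, 3 members were called for A-549 against ES-2, miR-28-3p being lost (adjusted p = 0.0178, limma), and no other count of members changed. Depth limits miR-708 outside ES-2 and miR-151b.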
